A study of Mus musculus with 6 samples.

Results

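Writers, readers and erasers of histone and DNA modifications were followed from cortical progenitors to their neuronal progeny. The genes were chosen by name: 58 symbols that cover both Polycomb complexes, the H3K9 methylation system, DNA methyltransferases and TET dioxygenases. They also cover methyl-CpG binding domain proteins, histone deacetylases, acetyltransferases and demethylases, and a few further chromatin proteins. A gene was measured where a probe set was annotated to its symbol alone, and where a gene had several, the brightest on average was used. This gave 56 genes of the 19938 measured in all. Suv39h1 and Hmga1 had no such probe set and are not analysed here.

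The study sorted 2 populations of brain cells from C57BL/6J mice with a dual reporter, 3 arrays each. GFP+ cells are labelled as cortical neural progenitors, and RFP+ cells as their differentiated neuronal progeny, whose source is given as brain with no region named. Total RNA was hybridised to Affymetrix whole-transcript arrays. The promoters that drive the reporters, the age of the animals and whether the arrays came from separate animals are not given in the sources used here, so the p-values speak of the spread among these 6 arrays, which may be technical.

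All 10 progenitor markers listed for a check of the labels, Pax6 and Sox2 among them, were higher in GFP+ progenitors, and all 9 measured neuron markers were higher in RFP+ neurons. Cells of other types may be present: all 10 endothelial markers and 7 of 8 pericyte and mural markers were higher in GFP+ arrays, with summed intensities of 2225 to 7100 and 5838 to 7306 there, against 792 to 1028 and 1004 to 1247 in RFP+ arrays. Of 6 oligodendrocyte lineage markers, 5 were also higher in GFP+ arrays (summed intensity 1528 to 2221, against 410 to 605 in RFP+ arrays), and 0 of 10 microglia markers passed either way (1237 to 1929 in GFP+, 1604 to 1963 in RFP+). Of 8 interneuron markers, 2 were higher in GFP+ arrays, Dlx2 (difference 0.99, adjusted p = 0.0109) and Gad2 (0.90, adjusted p = 0.00754), and 0 in RFP+ arrays. Their summed intensity was 11457 to 14610 in GFP+ arrays and 15038, 11802 and 5838 on RFP+ replicates 1, 2 and 3. No marker on these lists was at 0 on any array, but some lay near background. Background was judged by the 95th percentile of 1015 olfactory receptor genes. In RFP+ arrays 1 of 10 endothelial, 1 of 8 pericyte and mural and 1 of 6 oligodendrocyte lineage markers exceeded it on average. In GFP+ arrays 10, 7 and 5 did. Of 10 microglia markers, 1 exceeded it in GFP+ and 4 in RFP+ arrays, and all 8 interneuron markers did in both. In bulk samples, fewer cells of a type and less RNA per cell cannot be told apart. The part of other cell types in the results below was not tested.

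Histone tails and cytosines carry chemical marks that enzymes add and remove and that other proteins bind. Polycomb repressive complex 2 (PRC2) methylates histone H3 at lysine K27, and Polycomb repressive complex 1 (PRC1) binds that mark and ubiquitinates histone H2A, which together keep developmental genes silent. In the developing cortex these systems are known for timing the passage of progenitors from self-renewal to neuron production, and DNA methylation is rewritten as neurons mature. Enzymes are measured here only as RNA, which says nothing of protein or of the marks themselves.

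Of the 56 genes, 19 differed between the populations (limma, Benjamini-Hochberg adjusted p under 0.05 over all genes): 11 were higher in GFP+ progenitors and 8 in RFP+ neurons. This share, 33.9%, lies near the 29.96% of all genes that passed, made up of 13.7% toward GFP+ and 16.2% toward RFP+. The shares are not matched for brightness: the median GFP+ intensity was 1486 over the 56 genes and 290 over all genes. Without the dimmest 50% of genes, 24 of the 56 passed, and 4612 of all genes. That setting also left out Dnmt3b and Hmga2. The 4612 come from the brighter 50% of the 19938 genes, so neither count is a share of its full set. The median log2 difference was 0.07 over the 56 genes and -0.08 over all genes. Log2 differences below are the GFP+ mean minus the RFP+ mean of log2(intensity + 16), each with its standard error (SE), and folds are on that scale too, which understates the change of dim genes. Differences were mostly small, since 16 of the 19 were under 2-fold and only Hmga2, Prdm16 and Dnmt3a exceeded it. Of all genes, 12.97% passed with at least a 2-fold difference. Groups did not overlap for 34 of the 56 genes, against 43.9% of all genes. Of these, 16 were higher in GFP+ (19.9% of all genes) and 18 in RFP+ (24.1% of all genes). The sample titles carry replicate numbers but state no pairing. The numbers were taken to pair the arrays because the deviations of same-numbered arrays correlated. With the number as a block 27 of the 56 genes passed, 13 higher in GFP+ and 14 in RFP+, where 36.9% of all genes passed.

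**Figure D1:**
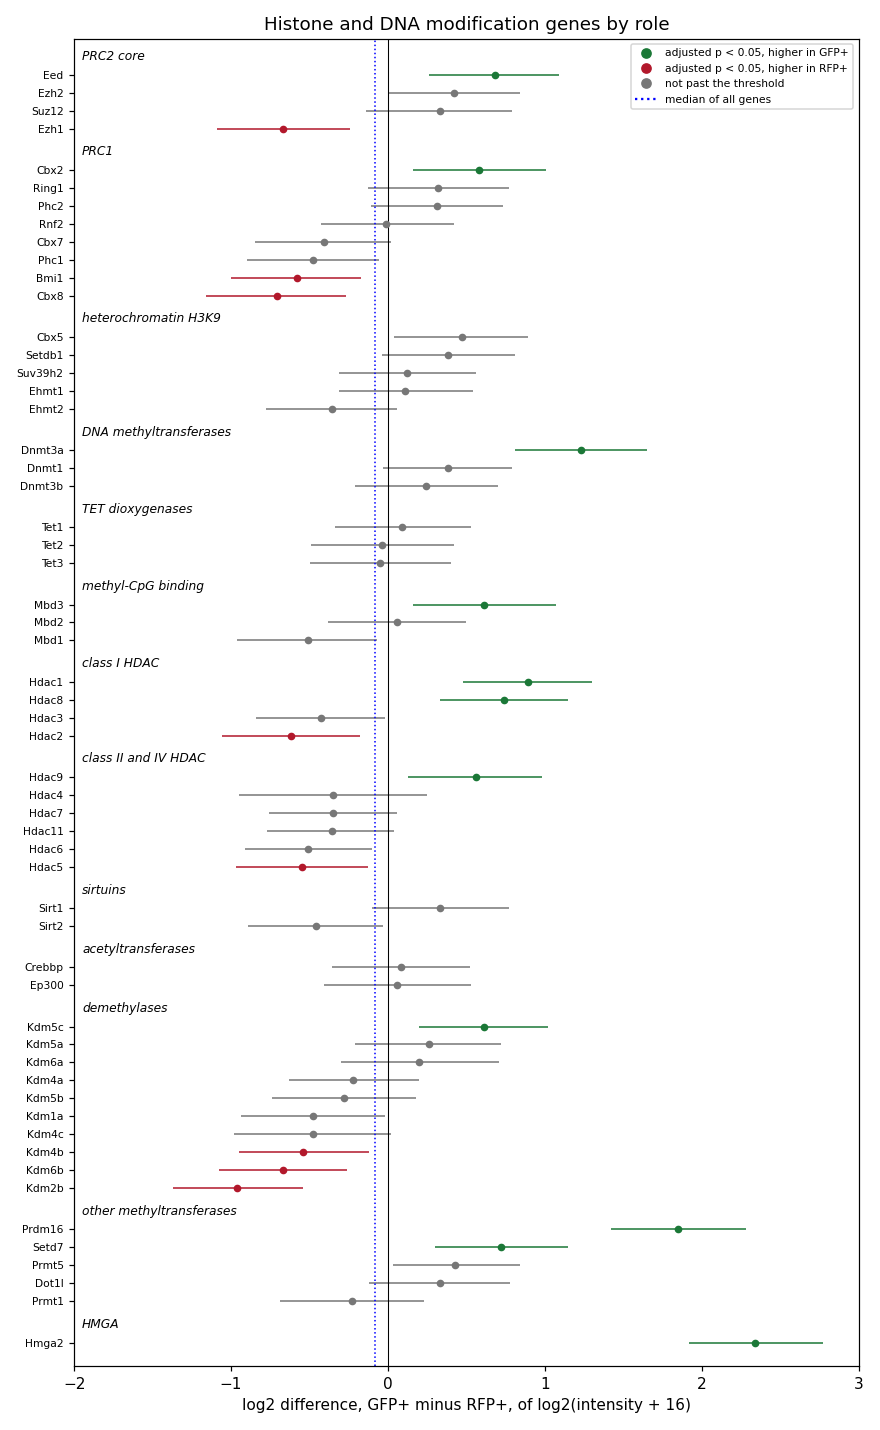
Log2 difference (GFP+ minus RFP+) of 56 histone and DNA modification genes, grouped by role, with 95% limma intervals (n = 3 arrays per group); green and red mark genes past the threshold, grey those not past it, and the dotted line the median of all genes. Hmga2, Prdm16 and Dnmt3a lie farthest to the right, Kdm2b farthest to the left, and grey intervals all stay within 1 log2 unit of 0.

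The calls differed in how far they depended on single arrays. Hmga2, Prdm16, Dnmt3a, Hdac1 and Kdm2b passed under every alternative that tested them, and Hdac8, Setd7 and Kdm6b missed the threshold only when both arrays numbered 1 were left out. The other 11 missed it when at least 1 single array was left out, and 9 to 15 genes passed under those exclusions, when 4508 to 5559 of all genes passed, against 5973 with all arrays. Leaving out both arrays numbered 1 left 7 genes, where 19.3% of all genes passed. For all 37 genes that did not pass, the 95% interval of the difference stayed within 1 log2 unit of 0. Such a gene was not shown to be equal in both populations, but on this scale a 2-fold difference lies outside its interval. The scale understates the change of dim genes, and Dnmt3b was under the olfactory receptor 95th percentile on all arrays.

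Hmga2 had the largest difference of the 56 genes. It encodes an AT-hook protein that bends DNA and opens chromatin, and is known for supporting self-renewal of young neural stem cells. Its intensity was 423, 417 and 323 in GFP+ progenitors, against 68.1, 58.7 and 62.6 in RFP+ neurons. The RFP+ values were those of near-background probe sets, since 1015 olfactory receptor genes had medians of 63.02 to 66.84 on the RFP+ arrays. The difference was 2.34 ± 0.20 (5.07-fold, adjusted p = 3.28e-08), a fold that depends on the offset of 16. On GFP+ replicates 1, 2 and 3 the endothelial markers summed to 2225, 5090 and 7100, and the pericyte and mural markers to 7296, 5838 and 7306. Their part in the Hmga2 difference was not tested.

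Prdm16, a zinc finger protein of the PR domain family that is active in radial glia, was next. Its intensity was 1527, 1373 and 1162 in GFP+ progenitors, against 344, 410.4 and 336 in RFP+ neurons. Every GFP+ array lay far above every RFP+ array, with a difference of 1.85 ± 0.20 (3.6-fold, adjusted p = 6.39e-07). Prdm16 exceeded the upper range of the olfactory receptor probe sets (95th percentile, 201.51 to 224.13 by array) on all 6 arrays, as did 54 of the 56 genes, all but Hmga2 and Dnmt3b. Prdm8, a PR domain gene outside the 56, went the other way, with 347, 562 and 458 in GFP+ progenitors, against 1740.4, 2467 and 2292 in RFP+ neurons (difference -2.22 ± 0.22, adjusted p = 2.00e-07).

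**Figure D2:**
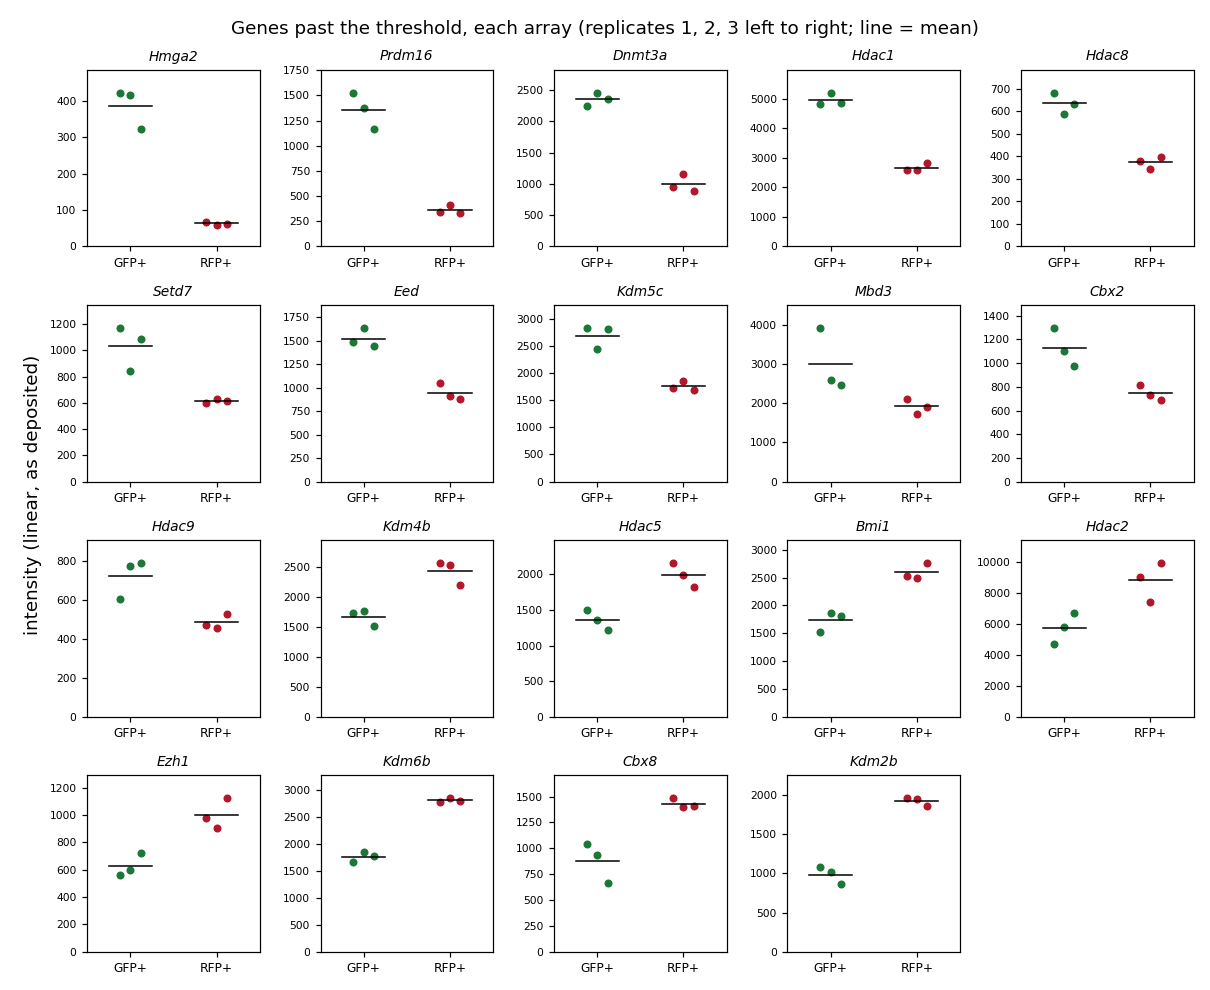
Intensity on each array (linear, as deposited) of the 19 genes past the threshold, ordered from the most GFP+ to the most RFP+, with GFP+ arrays left and RFP+ arrays right, replicates 1 to 3 in order and the group mean as a line. The groups do not overlap in any panel. The gap is widest for Hmga2, where GFP+ values reach 423 and RFP+ values stay under 70. It is narrow for Hdac2, Mbd3 and Hdac9.

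The promoters of these genes are shown because Hmga2 and Prdm16 have the largest differences toward GFP+ progenitors among genes with 1 listed start. Sequences are those of RefSeq (GRCm38.p6), from 250 bases before to 50 after the start, 5′ to 3′ along the gene. Hmga2 lies on the minus strand at chr10:120476420-120476719 and Prdm16 on the minus strand at chr4:154636824-154637123. Capitals mark the matches to 3 motifs searched on both strands, an E2F-like site (TTCCCGC, or with other letters TTCGCGC, or else TTGCCGC, or else TTGGCGC), the CHR element (TTTGAA) and the CCAAT box (CCAAT).
Hmga2: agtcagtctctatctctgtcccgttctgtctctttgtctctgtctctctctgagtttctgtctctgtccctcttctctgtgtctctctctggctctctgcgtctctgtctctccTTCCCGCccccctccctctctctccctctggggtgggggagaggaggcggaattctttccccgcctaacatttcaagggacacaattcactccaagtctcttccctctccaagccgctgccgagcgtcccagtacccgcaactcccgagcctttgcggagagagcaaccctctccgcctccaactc
Prdm16: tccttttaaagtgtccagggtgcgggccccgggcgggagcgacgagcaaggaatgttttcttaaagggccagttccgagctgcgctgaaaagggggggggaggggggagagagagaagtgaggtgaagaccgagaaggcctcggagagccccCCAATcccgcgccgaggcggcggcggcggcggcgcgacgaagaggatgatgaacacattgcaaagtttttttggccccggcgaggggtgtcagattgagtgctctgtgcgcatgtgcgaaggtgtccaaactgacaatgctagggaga
The Hmga2 window holds 1 E2F-like match and 12 CG dinucleotides. The Prdm16 window holds 1 CCAAT match and 24 CG dinucleotides.

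Among the DNA methyltransferases only Dnmt3a passed. It encodes the de novo enzyme that methylates DNA in maturing neurons and neural stem cells. Its intensity was 2245, 2460.0 and 2362 in GFP+ progenitors, against 955, 1160.0 and 880.1 in RFP+ neurons, a difference of 1.23 ± 0.20 (2.35-fold, adjusted p = 7.85e-05). Progenitor arrays were thus all above neuron arrays by a wide margin. Dnmt1, the maintenance enzyme that copies methylation after replication, had 3492, 3047 and 3557 in GFP+ progenitors, against 2449.8, 2557 and 2726 in RFP+ neurons. The groups did not overlap but the difference of 0.38 ± 0.20 did not pass (adjusted p = 0.154). Dnmt3b, the other de novo enzyme, stayed under that 95th percentile on all arrays, with 199, 116 and 134 in GFP+ progenitors, against 120.0, 113 and 129.9 in RFP+ neurons (adjusted p = 0.414).

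Cell division genes differed more than Dnmt1 did. All 15 measured cell division genes were higher in GFP+ progenitors, by a median of 2.15 and at the least by 1.30, whereas the 95% interval of the Dnmt1 difference ended at 0.79. Uhrf1, which recruits Dnmt1 to newly replicated DNA, had 1890.1, 2152 and 1922 in GFP+ progenitors, against 313, 396 and 342 in RFP+ neurons (difference 2.46 ± 0.20, adjusted p = 1.57e-08). Of the 11 other DNA methylation genes measured, 4 were higher in GFP+ and 1, the methyl-CpG binding zinc finger gene Zbtb33, in RFP+ (difference -0.58 ± 0.21, adjusted p = 0.0393). Gadd45g, a stress-response gene linked to DNA demethylation, was also higher in GFP+ (difference 2.09 ± 0.21, adjusted p = 2.49e-07). That list gave 3 to 5 calls when single arrays were left out.

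The TET genes, whose enzymes oxidise methylcytosine on the way to demethylation, showed no difference past the threshold. Tet1 had 1162, 1667 and 1518 in GFP+ progenitors, against 1373, 1407 and 1249 in RFP+ neurons (difference 0.09, 95% interval -0.34 to 0.53). Tet2 had 807, 775 and 1162 in GFP+ progenitors, against 845, 829.6 and 1118 in RFP+ neurons (difference -0.04, interval -0.49 to 0.42). For both genes 1 group's values lay within the range of the other. Tet3 had 1344, 1443 and 1121 in GFP+ progenitors, against 1406, 1610.3 and 1061 in RFP+ neurons (difference -0.05, interval -0.50 to 0.40). The further probe sets of Tet1 and Tet3 did not pass either (adjusted p = 0.22 to 0.979).

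Of the 3 genes of the methyl-CpG binding domain (MBD) family 1 passed, higher in GFP+ progenitors. Mbd3, a subunit of the nucleosome remodelling and deacetylase complex NuRD, had 3919, 2602 and 2461 in GFP+ progenitors, against 2113, 1726 and 1904 in RFP+ neurons (difference 0.61 ± 0.22, adjusted p = 0.0404). Its high value came from GFP+ replicate 1, and the call ended without that array or any 1 RFP+ array (adjusted p up to 0.177), with median centring (0.0551) and with an offset of 1 (0.0701). Mbd1, a methyl-CpG binding repressor, had 546, 532 and 615 in GFP+ progenitors, against 753, 678 and 1038 in RFP+ neurons. The groups stood apart, and it passed with the replicate block (adjusted p = 0.0346) but not without it (0.0762). Mbd2 overlapped, with a difference of 0.06.

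Of the alternative catalytic subunits of PRC2, Ezh1 passed and Ezh2 did not, and the difference between them was not tested. Ezh1, the form known from non-dividing cells, had 564, 596 and 720.0 in GFP+ progenitors, against 978, 905 and 1123 in RFP+ neurons, and was 1.59-fold higher in neurons (difference -0.67 ± 0.20, adjusted p = 0.0176). Ezh2, the form known from dividing cells, had 4363, 4035 and 4610.5 in GFP+ progenitors, against 3625, 2795 and 3342 in RFP+ neurons. Ezh2 values did not overlap, but the difference of 0.42 ± 0.20 did not pass (adjusted p = 0.126, and 0.0607 with the replicate block). The upper end of its 95% interval, 0.84, was under the smallest difference among the cell division genes, 1.30. The Ezh1 call was lost when GFP+ replicate 1 was left out, and when either of RFP+ replicates 1 and 3 was (highest adjusted p = 0.0788).

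Eed, the PRC2 subunit that binds methylated K27, was higher in GFP+ progenitors. It had 1485, 1637 and 1444 there, against 1054, 908 and 879.9 in RFP+ neurons (difference 0.68 ± 0.20, 1.6-fold, adjusted p = 0.0135). A second Eed probe set, dim at 62 to 102 in GFP+ and 66 to 100 in RFP+, showed no difference, and averaging both ended the call (difference 0.34, adjusted p = 0.206), as did leaving out RFP+ replicate 2 or 3 (up to 0.0547). Suz12, the scaffold subunit, overlapped between groups (difference 0.33 ± 0.22, adjusted p = 0.28).

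PRC1 holds a Pcgf protein, a RING ligase, a CBX reader and a PHC protein, and its genes split. Cbx8, a reader subunit, had 1042, 937 and 662 in GFP+ progenitors, against 1485, 1399 and 1404 in RFP+ neurons (difference -0.71 ± 0.21, adjusted p = 0.0151). Bmi1, the Pcgf protein known for stem cell self-renewal, had 1523, 1866 and 1807 in GFP+ progenitors, against 2535, 2491 and 2765 in RFP+ neurons (difference -0.58 ± 0.20, adjusted p = 0.0321). Both were thus higher in every neuron array. Cbx2, another reader, went the other way with 1298, 1101 and 979.5 in GFP+ progenitors, against 814, 732 and 685 in RFP+ neurons (difference 0.58 ± 0.20, adjusted p = 0.0362).

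These PRC1 calls were lost without single arrays. For Cbx8 they were GFP+ replicate 3 and RFP+ replicate 1 (adjusted p up to 0.0762), for Bmi1 GFP+ replicate 1 and each RFP+ array (up to 0.102), and for Cbx2 each array but GFP+ replicate 3 (up to 0.116). Of the other 5 PRC1 genes none passed. Phc1 was lower in every GFP+ array, at 1199.6 to 1427, against 1665 to 2054 in RFP+ neurons (difference -0.48 ± 0.20, adjusted p = 0.0791, and 0.0462 with the replicate block). Cbx7 also stood apart, at 260.4 to 284 in GFP+ progenitors, against 291 to 417 in RFP+ neurons (adjusted p = 0.144). The ligase genes Rnf2 and Ring1 and the scaffold gene Phc2 overlapped, with differences of -0.01, 0.32 and 0.31.

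The promoters of Cbx8 and Ezh1 are shown beside those above as the genes with the largest difference toward RFP+ neurons that have 1 listed start. Cbx8 lies on the minus strand at chr11:119040864-119041163 and Ezh1 on the minus strand at chr11:101226414-101226713, with capitals as before.
Cbx8: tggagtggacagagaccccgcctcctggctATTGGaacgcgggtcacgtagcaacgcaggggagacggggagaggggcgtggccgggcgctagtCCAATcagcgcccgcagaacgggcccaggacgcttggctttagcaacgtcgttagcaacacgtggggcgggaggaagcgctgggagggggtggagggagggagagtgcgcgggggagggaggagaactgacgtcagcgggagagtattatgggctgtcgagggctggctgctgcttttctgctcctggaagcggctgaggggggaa
Ezh1: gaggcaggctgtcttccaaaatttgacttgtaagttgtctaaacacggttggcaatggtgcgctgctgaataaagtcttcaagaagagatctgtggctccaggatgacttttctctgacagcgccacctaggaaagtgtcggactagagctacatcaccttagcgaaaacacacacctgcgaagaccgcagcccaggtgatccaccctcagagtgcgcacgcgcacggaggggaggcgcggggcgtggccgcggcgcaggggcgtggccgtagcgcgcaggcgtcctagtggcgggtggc
Cbx8 holds 2 CCAAT matches, 1 on each strand, and 24 CG dinucleotides, and Ezh1 holds none of the 3 motifs and 23 CG dinucleotides. Over the 48 genes with a listed promoter, 12.5% of 64 promoters held an E2F-like site, 14.1% a CHR element and 42.2% a CCAAT box. In all 32851 RefSeq promoters of that length the shares were 9.57%, 17.9% and 37.4%. Among the 48 genes, the 9 that passed toward GFP+ progenitors had 12 promoters, of which 2 held the E2F-like site and 3 the CHR element. The 6 genes that passed toward RFP+ neurons had 9 promoters, of which 0 held either. The 33 that did not pass had 43, of which 6 held the E2F-like site and 6 the CHR element. The CCAAT box was in 5 of the 12, 4 of the 9 and 18 of the 43. These counts are small and were not tested. Promoters of 1 gene can overlap, so these are not independent. The median number of CG dinucleotides was 23.0 in the 64 promoters of the 48 genes and 7.0 in all promoters.

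Outside the 56 genes, 18 other Polycomb genes were measured, of which 5 were higher in GFP+ progenitors and 6 in RFP+ neurons. Pcgf5, a Pcgf protein of variant PRC1, had the largest difference, with 596, 665 and 809.9 in GFP+ progenitors, against 93.3, 119.6 and 83.4 in RFP+ neurons (difference 2.62 ± 0.21, adjusted p = 1.32e-08). Its RFP+ values were within the range of olfactory receptor probe sets (below their 95th percentile), as did those of Phf19, so both differences are set against signal near background and depend on the offset. The PRC2 cofactor Phf19 was higher in GFP+ as well (2.10 ± 0.20, adjusted p = 1.08e-07), whereas its relative Phf1 was higher in RFP+ (-1.16 ± 0.20, adjusted p = 1.51e-04). Yaf2, a variant PRC1 subunit, was also higher in RFP+ (-0.92 ± 0.23, adjusted p = 0.00399). Between 6 and 8 of these 18 passed when single arrays were left out, and 4 without both arrays numbered 1. The background for this list and the other lists outside the 56 is that of all genes. Of all 19938 genes, 29.96% passed with all arrays, and 4508 to 5559 genes when single arrays were left out. The share fell to 19.3% without both arrays numbered 1.

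Hdac1 and Hdac2, closely related class I deacetylases that share the Sin3, NuRD and CoREST complexes, went opposite ways. Hdac1 had 4804, 5202 and 4847 in GFP+ progenitors, against 2599.8, 2573 and 2830.2 in RFP+ neurons (difference 0.89 ± 0.20, 1.85-fold, adjusted p = 0.00153). Hdac2 had 4730.1, 5802 and 6689 in GFP+ progenitors, against 9058, 7434 and 9943 in RFP+ neurons (difference -0.62 ± 0.21, 1.54-fold, adjusted p = 0.0325). Neither gene overlapped between the groups. A second Hdac1 probe set gave 0.90 ± 0.19. The Hdac2 call ended without GFP+ replicate 1 or 2 or RFP+ replicate 1 or 3 (adjusted p up to 0.124), with quantile normalization (0.0586) and with an offset of 1 (0.0552).

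Hdac8, a class I enzyme known for deacetylating cohesin, was 1.67-fold higher in progenitors. It had 682, 588 and 634 in GFP+ progenitors, against 379, 342 and 397 in RFP+ neurons (difference 0.74 ± 0.20, adjusted p = 0.00712). Without both arrays numbered 1 it did not pass (adjusted p = 0.0703). Hdac3, the catalytic subunit of the NCoR complex, had 2416 to 2724 in GFP+ progenitors, against 3347 to 3779 in RFP+ neurons. The groups stood apart, and the difference of -0.43 ± 0.20 did not pass (adjusted p = 0.106).

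Of the 6 class II and IV deacetylases, 5 had a difference below 0, as had 11065 of all 19938 genes. In this class 1 gene passed each way. Hdac5, a class IIa enzyme that shuttles out of the nucleus on calcium signals, had 1501, 1364 and 1215 in GFP+ progenitors, against 2159.9, 1996 and 1818 in RFP+ neurons (difference -0.55 ± 0.20, adjusted p = 0.0453). Hdac9, of the same class, had 608, 773 and 791 in GFP+ progenitors, against 473, 454 and 528 in RFP+ neurons (difference 0.56 ± 0.20, adjusted p = 0.0447). With Kdm4b these are the calls closest to the threshold, and each passed in only 1 of the 6 fits that left out an array (that without GFP+ replicate 1 for both, with adjusted p up to 0.162 for Hdac5 and 0.136 for Hdac9 in the rest). Both also ended with quantile normalization (0.068 and 0.0564) and an offset of 1 (0.0576 and 0.0573), and Hdac9 with median centring (0.0577).

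Hdac6, the cytoplasmic tubulin deacetylase, was the gene just outside the threshold. It had 532, 556 and 573 in GFP+ progenitors, against 767, 801 and 809.7 in RFP+ neurons, 2 tight groups that did not overlap (difference -0.51 ± 0.19, adjusted p = 0.056, and 0.0277 with the replicate block). It also passed with quantile normalization and with median centring. Hdac11, the class IV enzyme, had 268, 250.2 and 279 in GFP+ progenitors, against 364, 347 and 330.4 in RFP+ neurons (difference -0.36 ± 0.20, adjusted p = 0.168). Hdac7 also stood apart, lower in GFP+ (adjusted p = 0.191). Hdac4, picked out after its values were seen, was the most variable of the 56 genes, at 537, 1468 and 943 in GFP+ progenitors, against 1392, 1340.2 and 839 in RFP+ neurons, and its 2 probe sets differed in sign (-0.35 and 0.24, neither passing).

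Neither sirtuin passed. Sirt1, a nuclear NAD-dependent deacetylase, overlapped (difference 0.33 ± 0.21), and Sirt2, which also deacetylates tubulin, was lower in every GFP+ array, at 1097 to 1529, against 1584 to 1827 in RFP+ neurons (difference -0.46 ± 0.21, adjusted p = 0.102, and 0.0486 with the replicate block). Of 20 other deacetylase complex genes, 2 were higher in GFP+ progenitors and 6 in RFP+ neurons. The NuRD helicases Chd5 (difference -0.95 ± 0.20, adjusted p = 0.00126) and Chd3 (-0.86 ± 0.21, adjusted p = 0.00374) were higher in RFP+ neurons. Hmg20b, a CoREST subunit (0.85 ± 0.19, adjusted p = 0.00213), and the NuRD subunit Gatad2a (0.67 ± 0.21, adjusted p = 0.0174) were higher in GFP+ progenitors. Their count of 8 became 5 to 8 when single arrays were left out and 4 without both arrays numbered 1.

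The acetyltransferases Ep300 and Crebbp, coactivators that acetylate histones at enhancers, overlapped between the groups. Their differences were 0.06 (95% interval -0.41 to 0.53) and 0.08 (-0.36 to 0.52). Of 14 other acetyltransferase genes 2 passed, both higher in GFP+ progenitors. They were Hat1, which acetylates newly made histone H4 (difference 1.17 ± 0.20, adjusted p = 1.38e-04), and Kat2a (0.70 ± 0.20, adjusted p = 0.0109). With the replicate block 4 passed, and 1 to 3 when single arrays were left out.

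Of the 10 demethylase genes, Kdm2b had the largest difference. Its protein binds unmethylated CpG islands and brings variant PRC1 there. It had 1079.5, 1011 and 865 in GFP+ progenitors, against 1959, 1946 and 1856 in RFP+ neurons (difference -0.96 ± 0.20, 1.94-fold, adjusted p = 8.95e-04). The GFP+ values were all well under the RFP+ values, and the call held under all 18 alternatives. Kdm6b, which removes methylation from K27 of histone H3, had 1671, 1853 and 1770.2 in GFP+ progenitors, against 2788, 2853 and 2798 in RFP+ neurons (difference -0.67 ± 0.19, 1.59-fold, adjusted p = 0.013). Without both arrays numbered 1 its call ended (adjusted p = 0.0956).

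Kdm6a, the X-linked relative of Kdm6b, overlapped widely. It had 659, 761 and 1169 in GFP+ progenitors, against 732, 555 and 937 in RFP+ neurons (difference 0.20 ± 0.24, adjusted p = 0.553). Kdm5c, an X-linked H3K4 demethylase, had 2836, 2441 and 2807 in GFP+ progenitors, against 1729, 1849 and 1689.6 in RFP+ neurons (difference 0.61 ± 0.20, 1.53-fold, adjusted p = 0.0238). Every progenitor array was above every neuron array for Kdm5c, although its call ended without any 1 array but GFP+ replicate 2 (up to 0.0808). The sex-linked transcripts Xist, Eif2s3y, Kdm5d and Uty overlapped between the groups, with adjusted p of 0.341 to 0.983, and both Xist (2829 to 4405 in GFP+, 2516 to 4049 in RFP+) and Kdm5d (327 to 594 in GFP+, 318 to 418 in RFP+) were present on all arrays.

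Kdm4b, which demethylates K9 of histone H3, had 1727, 1763 and 1519 in GFP+ progenitors, against 2571, 2529.5 and 2198 in RFP+ neurons. It was the last gene inside the threshold (difference -0.54 ± 0.20, adjusted p = 0.0467), and its call ended without any 1 of the 6 arrays (up to 0.152), with quantile normalization (0.072) and with an offset of 1 (0.0575). Kdm1a, the CoREST demethylase, and Kdm4c passed with the replicate block (adjusted p = 0.0336 and 0.0358) but not without it (0.106 and 0.14), both with differences of -0.48. Kdm4c also passed without GFP+ replicate 3. Kdm4a stood apart without passing (difference -0.22), and Kdm5a and Kdm5b overlapped (0.26 and -0.28). Of 15 other demethylase genes, 5 were higher in GFP+ and 1 in RFP+. Riox2, a ribosome-linked oxygenase (difference 2.16 ± 0.20, adjusted p = 8.64e-08), and Kdm8 (0.88 ± 0.20, adjusted p = 0.00177) led the first, both with RFP+ values under the olfactory receptor 95th percentile, and Kdm1b was higher in RFP+ (-0.72 ± 0.20, adjusted p = 0.00918). The count of 6 became 3 to 5 without single arrays and 2 without both arrays numbered 1.

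The H3K9 methylation system, which builds heterochromatin, gave no gene past the threshold among 5 measured. Cbx5, the reader HP1 alpha, was nearest, at 2972 to 3909 in GFP+ progenitors, against 2239 to 2579 in RFP+ neurons (difference 0.47 ± 0.20, adjusted p = 0.0893, and 0.0469 with the replicate block). Setdb1, which silences retroelements, was higher in every GFP+ array (0.38 ± 0.20), and Ehmt2, the euchromatic dimethyltransferase, lower in every one (-0.36 ± 0.20). Its partner Ehmt1 (0.11) and Suv39h2 (0.12) overlapped. At an unadjusted p under 0.05 only Cbx5 of these passed. Of 25 other methyltransferase and heterochromatin genes, 1 was higher in GFP+, the HP1 gene Cbx1 (0.56 ± 0.21, adjusted p = 0.0468), and 6 in RFP+, led by Prdm8 and the arginine methyltransferase gene Prmt2 (-0.97 ± 0.21, adjusted p = 0.00124). With single arrays left out 3 to 6 of them passed.

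Among the remaining methyltransferases Setd7, which monomethylates histone H3 and other proteins, had 1172, 843 and 1090.0 in GFP+ progenitors, against 598, 632 and 613 in RFP+ neurons. The neuron arrays were tight and all under the progenitor arrays (difference 0.72 ± 0.20, 1.65-fold, adjusted p = 0.0107), and the call ended without both arrays numbered 1 (adjusted p = 0.123). Prmt5, the symmetric arginine methyltransferase, had 4052 to 4452 in GFP+ progenitors, against 3007 to 3270.4 in RFP+ neurons (0.43 ± 0.20, adjusted p = 0.101, and 0.0484 with the replicate block). Dot1l, the H3K79 methyltransferase, and Prmt1 overlapped (0.33 and -0.23). Of 18 Trithorax and H3K4 or H3K36 methyltransferase genes 2 passed, Smyd2 (-1.20 ± 0.21, adjusted p = 1.51e-04) and Smyd3 (-0.93 ± 0.21, adjusted p = 0.00205), both higher in RFP+ neurons. Of 8 HMG chromatin genes, 5 were higher in GFP+, led by Hmgb2 (1.97 ± 0.21, adjusted p = 3.75e-07) and Hmgn5 (1.26 ± 0.21, adjusted p = 9.43e-05), and Tox was higher in RFP+ (-0.85 ± 0.20, adjusted p = 0.0027).

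**Figure D3:**
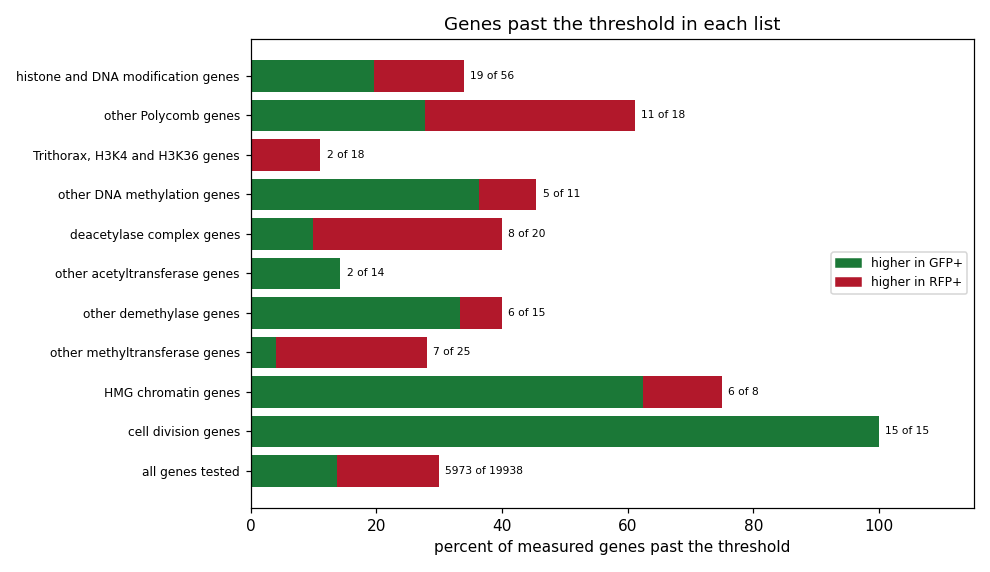
Percent of the measured genes in each list that passed the threshold, split into higher in GFP+ (green) and higher in RFP+ (red), with the counts at the bar ends. The 19 of 56 histone and DNA modification genes lie close to all genes tested (29.96%), whereas all 15 cell division genes passed, higher in GFP+.

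Within groups the arrays did not vary independently from gene to gene. Among the 56 genes, 35 (62.5%) had their highest value on arrays of the same number in both groups, against 46.8% of all genes. These were both arrays numbered 1 in 13 genes (2294 of all genes) and both numbered 2 in 5 (3382 of all genes). In 17 of the 56 they were both arrays numbered 3, against 3651 of all 19938 genes. Kdm6a is an example, highest at 1169 on GFP+ replicate 3 and at 937 on RFP+ replicate 3. Ep300, Kdm5a, Kdm5b, Kdm4c and Suz12 were highest there too, whereas Prmt1 and Mbd3 were highest on both arrays numbered 1.

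**Figure D4:**
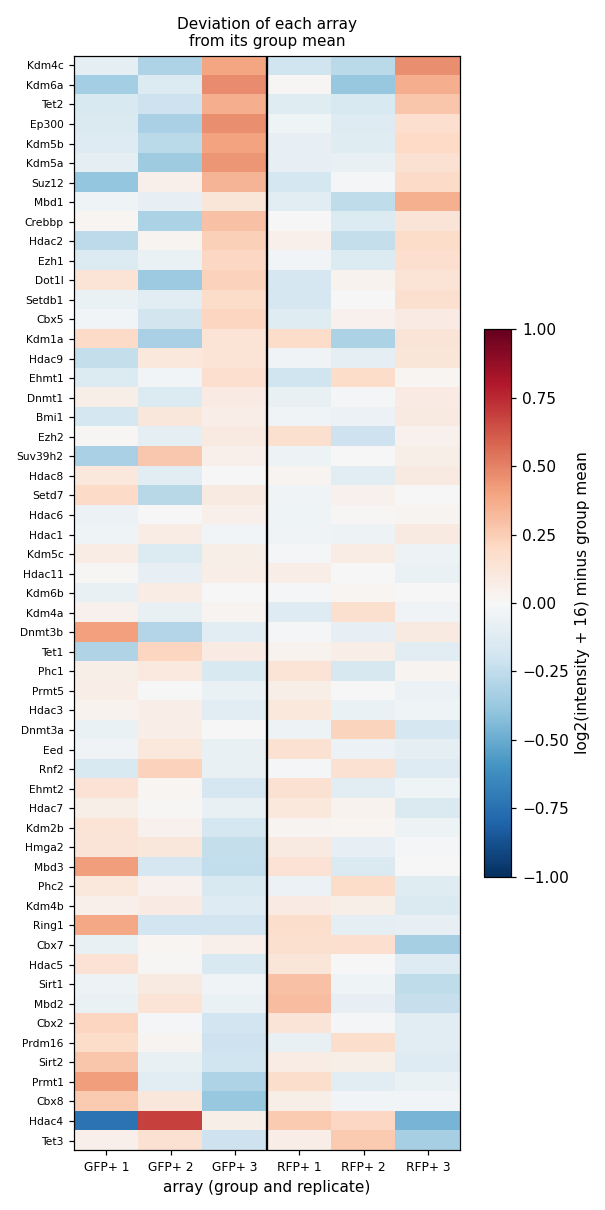
Deviation of each array from its group mean on the log2(intensity + 16) scale for the 56 genes, ordered by the sum of the deviations on the arrays numbered 3 (GFP+ arrays left, RFP+ arrays right). Kdm4c, Kdm6a, Tet2 and Ep300 at the top are high on both arrays numbered 3, and Hdac4 has the widest spread, with 537 on GFP+ replicate 1 and 1468 on GFP+ replicate 2.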

How the data were processed

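RNA of sorted GFP+ and RFP+ cells was measured on Affymetrix arrays that cover whole transcripts, per the labels. The authors deposited 1 linear intensity per probe set and sample, made with the Affymetrix Expression Console per the submitters' processing notes. Its version, background correction, normalization and summarisation are not given in the sources used here. Array medians were 210.31 to 221.1. Of 35557 probe sets 21789 carried 1 gene symbol in GEO's platform annotation, 1621 several, and 12147 are unnamed here.

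The test was limma 3.58.1 in R 4.3.3 (lmFit, then eBayes; two-sided; prior degrees of freedom 15.5) on log2(intensity + 16) over all 19938 genes. Python 3.11.15 made tables and figures (matplotlib 3.10.9, pandas 2.3.3, numpy 2.4.6). The script was tested on simulated data. It recovered 8 of 50 genes changed 1.5-fold, 40 of 50 changed 2-fold, and all 50 at 4-fold and at 8-fold. Of 19738 unchanged genes 13 passed. Far fewer genes were changed there than passed in these data, so the shares recovered do not carry over directly. The median SE was 0.21, and the number of arrays limits the precision. Values in every array are given for the 10 passing genes with the largest difference each way, genes nearest the threshold and a list of genes set by name, and other genes by range. From each list the 2 passing genes with the largest difference each way are named. The members, lists, tests and alternatives were chosen with earlier results of these data known.

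The replicate numbers come from the sample titles. Deviations of same-numbered arrays from their group means correlated across genes at 0.204, 0.288 and 0.361, all over 0.1, and those of different numbers at -0.267 to 0.00422, so the numbers were taken to pair the arrays. The main test had no block. The 18 alternatives were the number as a fixed or random block, quantile normalization, median centring, offsets of 1 and 64, dropping the dimmest genes (30% or 50%), the mean of probe sets, an intensity trend with robust moderation, array weights, leaving out each array, and leaving out both arrays numbered 1.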

Additional observations from a re-analysis of the deposited data

How the results depend on the processing

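Of the 19 genes past the threshold, 5 passed under every alternative that tested them, 8 passed whichever single array was left out, and 0 changed sign under any of the 18 alternatives. Dnmt3b was too dim for both settings without dim genes, and Hmga2 for the one without the dimmest 50%. Leaving out single arrays gave 9 to 15 genes (6 to 9 higher in GFP+, 2 to 6 higher in RFP+), against 4508 to 5559 of all genes (2205 to 2546 and 2303 to 3041), and leaving out both arrays numbered 1 gave 7 (5 and 2), against 3848 of all genes, of which 1847 were higher in RFP+. Both settings also have fewer arrays. Toward RFP+, where 8 genes and 3233 of all genes passed, the replicate block gave 14 (4045 of all genes) and changed no call of the 19. The random block gave 15 (4541 of all genes), and 29 either way (8178 of all genes). An offset of 64 and an intensity trend with robust moderation each gave 13 toward RFP+ (3477 and 3571 of all genes), and an offset of 1 gave 5 (2882 of all genes). The cause of these moves was not tested. Median centring moved the median of all genes to -0.12, from -0.08. Of the 37 other genes, 10 passed under at least 1 alternative and 10 changed sign. Rnf2 was at 0.05 with quantile normalization, 0.06 without both arrays numbered 1 and -0.12 to 0.07 without single arrays, and Hdac4 at 0.15 without both arrays numbered 1. Without single arrays the range was -0.69 to 0.02 for Hdac4, -0.01 to 0.29 for Suv39h2, -0.01 to 0.24 for Tet1, -0.22 to 0.10 for Tet2, -0.21 to 0.08 for Tet3, -0.05 to 0.22 for Mbd2, -0.17 to 0.22 for Ep300, -0.07 to 0.24 for Crebbp and -0.03 to 0.39 for Kdm6a.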
